A study of Mus musculus with 2 samples.

Results

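The collagen genes of the mouse were followed across the cells of fetal lung in a single-cell RNA sequencing library. They were chosen by name, as every gene of the deposited matrix whose symbol is written Col, a number, a and a number, which gave 44 of 32285 genes. All 44 had a unique molecular identifier (UMI, 1 counted RNA molecule) in at least 1 cell assigned to a litter, and 38 had at least 10. By family, 11 genes code for fibrillar chains, 6 for the collagen IV chains of the basement membrane, 3 for chains of the basement membrane zone (Col7a1, Col15a1 and Col18a1) and 24 for other chains, 9 of them fibril-associated collagens. C57BL/6J mothers drank water with dexamethasone (DEX, a synthetic glucocorticoid) at 1.3 µg/ml from gestation day 12, or received PBS as the control, and fetal lungs were taken on day 18. All fetuses were wild type and no gene was altered. The lungs of each litter were pooled, 8 and 9 fetuses for litters DEX-1 and DEX-2, and 5 and 8 for PBS-1 and PBS-2, so the litter is the replicate and there are 2 a group. Cells were sorted as CD45+ Lin- ST2+, marked with 1 hashtag antibody a litter and run as 1 library, so a litter effect and a hashtag effect cannot be told apart. The mothers were 9 weeks old.

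Collagens are the main structural proteins of the extracellular matrix, made as procollagen chains that join into trimers, are hydroxylated in the endoplasmic reticulum and are cross-linked outside the cell. Fibrillar collagens I, III and V build the tensile fibres of the interstitium and are the best known products of fibroblasts. Collagen IV forms the sheet-like network of basement membranes, in the lung under epithelium and around vessels, and its chains combine in fixed sets in which Col4a1 and Col4a2 partner each other and Col4a3, Col4a4 and Col4a5 partner one another.

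The 7268 cells with 1 hashtag and at least 200 genes split into 1737, 1888, 1753 and 1890 cells for DEX-1, DEX-2, PBS-1 and PBS-2, at median depths of 8011, 8325, 7458 and 8246 UMIs a cell, and held 61788 collagen UMIs. The sort was for immune cells, and most cells were immune, but 198 mesenchymal-like, 303 endothelial-like and 444 epithelial-like cells were present. Classes were named from marker genes that hold no collagen, and collagen genes were left out of the clustering. In the mesenchymal-like class 8 of 11 mesenchymal markers were each detected in at least 25% of cells, against 10 of 10 endothelial markers in the endothelial-like class and 6 of 6 markers in both the alveolar type 1-like and alveolar type 2-like cells, which make up most of the epithelial-like class. The mesenchymal-like name was close to the limit. Mesenchymal markers had a mean share of 47.0% of its cells and basophil or mast markers, the next type, 27.4%. The next type was allowed at most 60% of the first. In the endothelial-like class the shares were 85.7% and, for the next type, 23.0%. The immune classes used here were 2075 ILC2-like cells (9 of 10 markers), 2812 basophil or mast-like cells (8 of 10) and 199 B-like cells. Another 1237 cells lay in 4 clusters that could not be named. Of these clusters 1, with 333 deep cells that carried both epithelial and endothelial markers, held 28194 of the 61788 collagen UMIs. The mesenchymal-like, endothelial-like and epithelial-like classes held 10425, 9909 and 9387, so the class levels below leave out much of the collagen RNA. RNA of other cells was seen in every class. The summed level of 10 basophil or mast cell markers ran from 6882 to 12881 CPM (UMIs per 1000000 UMIs of the class and litter) over the litters in mesenchymal-like cells and from 704 to 8384 CPM in endothelial-like cells, against 48642 to 59082 CPM in the basophil or mast-like cells themselves. In the ILC2-like cells the summed level of 11 mesenchymal markers was 32.4 to 54.5 CPM, and no mesenchymal marker reached 25% of the cells.

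The promoters of 5 genes on which the results turn are shown first. They are the fibrillar Col3a1, the divergent collagen IV pair Col4a1 and Col4a2, the alveolar Col4a4 and the mast cell-high Col7a1. Each runs 5′ to 3′ on the gene's own strand from 250 bases before to 50 after the annotated start, from RefSeq on GRCm38.p6 (mm10, the build in the submitters' processing notes, is GRCm38), and 35 of the 44 genes had such an entry. Capitals mark matches on either strand to 3 promoter motifs. The GC box was searched as GGGCGG, the CCAAT box by the letters of its name, and the TATA box as TATAAA. The windows lie at chr1:45311288-45311587 (plus strand, Col3a1), chr1:82586800-82587099 (minus, Col4a4), chr8:11312777-11313076 (minus, Col4a1), chr8:11312555-11312854 (plus, Col4a2) and chr9:108953336-108953635 (plus, Col7a1).
Col3a1: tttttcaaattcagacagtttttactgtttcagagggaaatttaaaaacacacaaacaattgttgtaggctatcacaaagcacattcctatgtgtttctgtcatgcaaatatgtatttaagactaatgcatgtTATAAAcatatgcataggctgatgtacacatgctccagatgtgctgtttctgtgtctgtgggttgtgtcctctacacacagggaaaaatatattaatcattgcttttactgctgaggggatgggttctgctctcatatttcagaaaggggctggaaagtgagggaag
Col4a4: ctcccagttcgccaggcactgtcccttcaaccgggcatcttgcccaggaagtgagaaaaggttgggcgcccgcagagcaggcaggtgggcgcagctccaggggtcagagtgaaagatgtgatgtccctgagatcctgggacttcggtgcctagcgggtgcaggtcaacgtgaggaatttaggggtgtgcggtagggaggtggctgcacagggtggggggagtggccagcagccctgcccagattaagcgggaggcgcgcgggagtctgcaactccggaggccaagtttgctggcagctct
Col4a1: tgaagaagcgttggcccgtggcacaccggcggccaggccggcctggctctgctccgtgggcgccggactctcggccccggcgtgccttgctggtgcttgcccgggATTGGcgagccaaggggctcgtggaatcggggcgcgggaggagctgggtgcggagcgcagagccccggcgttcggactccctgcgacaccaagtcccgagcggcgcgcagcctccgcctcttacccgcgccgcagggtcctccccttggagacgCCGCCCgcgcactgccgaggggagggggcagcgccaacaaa
Col4a2: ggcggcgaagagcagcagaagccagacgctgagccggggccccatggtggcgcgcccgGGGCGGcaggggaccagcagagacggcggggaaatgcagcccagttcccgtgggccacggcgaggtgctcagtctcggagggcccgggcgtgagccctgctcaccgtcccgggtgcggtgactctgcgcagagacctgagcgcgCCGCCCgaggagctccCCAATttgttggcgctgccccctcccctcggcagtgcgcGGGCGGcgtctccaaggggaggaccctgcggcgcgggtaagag
Col7a1: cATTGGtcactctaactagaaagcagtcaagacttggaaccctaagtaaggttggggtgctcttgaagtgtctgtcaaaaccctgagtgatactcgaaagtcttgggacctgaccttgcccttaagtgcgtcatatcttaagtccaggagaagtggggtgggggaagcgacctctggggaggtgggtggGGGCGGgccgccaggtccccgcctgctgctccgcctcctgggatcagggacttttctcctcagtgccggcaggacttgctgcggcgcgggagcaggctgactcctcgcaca

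The Col3a1 window was low in G and C (37.7%) and held a TATA box and no GC box. The Col4a1 and Col4a2 windows overlap, since the genes start 21 bases apart on opposite strands and share 22 bases, and they were 74.0% and 73.7% G and C, with CCAAT and GC box letters and no TATA box. Col4a4, which faces Col4a3 with 71 bases between the genes, held none of these letters. Over the 35 collagen windows GGGCGG was found in 22 (62.9%), against 35.7% of the 32851 promoters in the table, CCAAT in 12 (34.3%, against 37.4%) and TATAAA in 5 (14.3%, against 13.6%). An E-box written CAGCTG was in 7 windows (20.0%, against 16.3%) and a GATA site written AGATAA in 2 (5.71%, against 11.2%). These are matches of letters, searched on both strands, and not sites shown to be bound.

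Collagen RNA was highest in mesenchymal-like cells, where it took 4727, 4587, 5007 and 3212 CPM of all UMIs in DEX-1, DEX-2, PBS-1 and PBS-2 (mean 4383 ± 800, SD, n = 4 litters). In endothelial-like cells the same sum was 2393, 2470, 2506 and 1596 CPM (2241 ± 432), and in epithelial-like cells 914, 964, 1023 and 985 CPM (971 ± 45.2). The 3 classes did not overlap in any litter, and PBS-2 was the lowest litter of the mesenchymal-like and the endothelial-like class. The kinds of chain differed more than the sums. Fibrillar chains made up 51.9 ± 3.06% of the collagen UMIs of mesenchymal-like cells, 12.0 ± 5.05% in endothelial-like cells and 1.99% in epithelial-like cells. Collagen IV made up 12.5 ± 2.47%, 78.3 ± 6.86% and 62.1 ± 1.98% in the same order. Over the mesenchymal-like, endothelial-like, epithelial-like, ILC2-like, basophil or mast-like and B-like classes, 23 of the 38 genes with 10 UMIs or more had their highest mean in mesenchymal-like cells, 7 in endothelial-like cells (Col4a1, Col4a2, Col5a2, Col8a1, Col15a1, Col18a1 and Col28a1), 6 in epithelial-like cells (Col4a3, Col4a4, Col4a5, Col4a6, Col6a5 and Col12a1) and 2 in basophil or mast-like cells (Col7a1 and Col20a1). Most Col5a2 UMIs of the endothelial-like class (401 of 589) came from 16 of its cells, described below. Levels in CPM are scaled for depth without a correction for gene length, as 5′ tag counts. Levels of different genes are therefore set side by side here only to describe each class. Fewer cells and less RNA a cell cannot be told apart in a class sum, but every level is scaled to the UMIs of its own class.

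**Figure D1:**
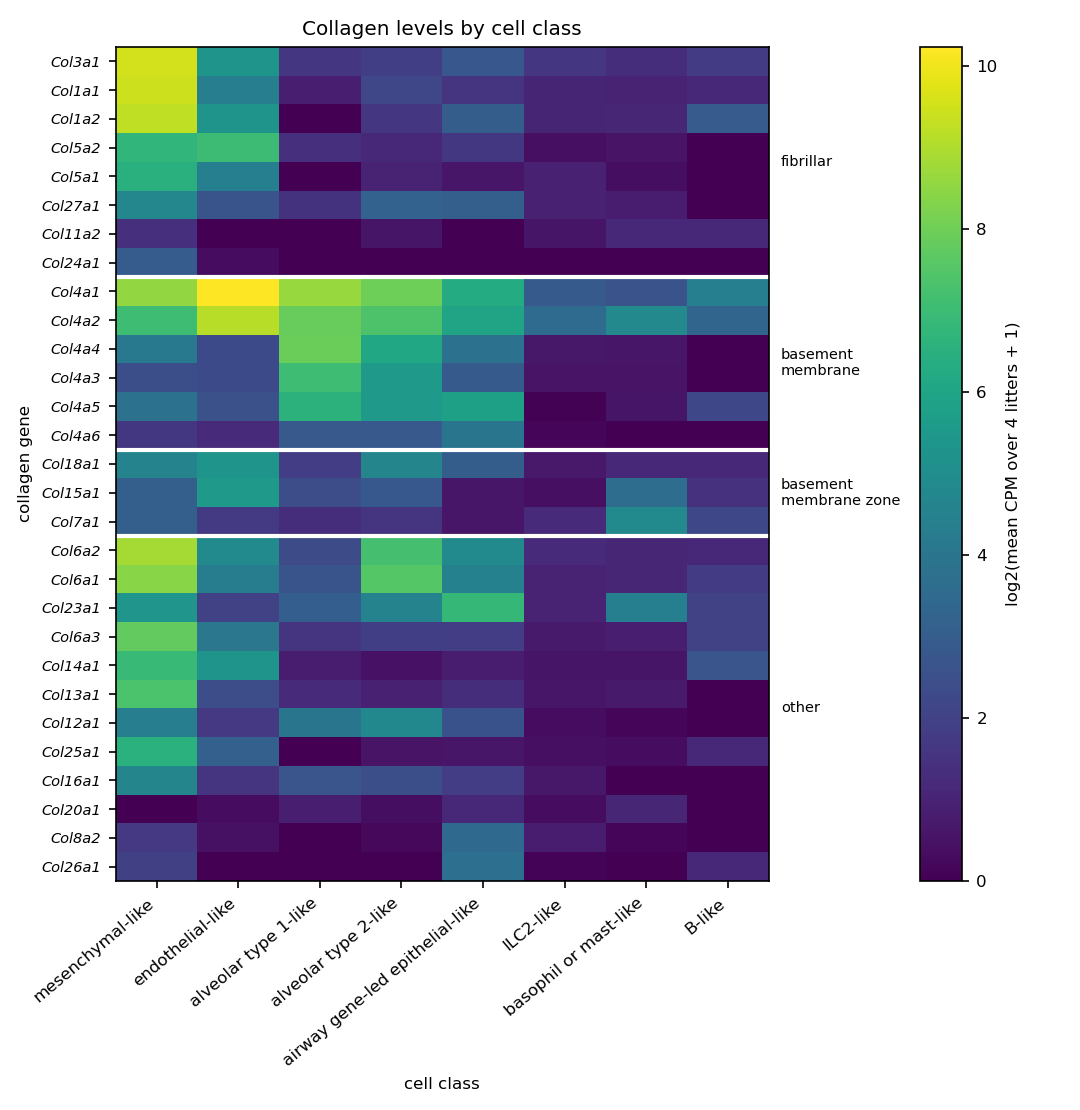
Heat map of the mean level over the 4 litters of the more abundant collagen genes (left axis, grouped by family) in 8 cell classes or subclasses (bottom axis), coloured by log2(mean CPM + 1), with lighter and yellower colours for higher levels. Col1a1, Col1a2 and Col3a1 are brightest in the mesenchymal-like column, Col4a1, Col4a2 and Col5a2 in the endothelial-like column and Col4a3, Col4a4 and Col4a5 in the alveolar type 1-like column.

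Collagen I and III genes had their highest levels in the mesenchymal-like cells. Col3a1, the chain of collagen III, reached 904, 760, 839 and 474 CPM in DEX-1, DEX-2, PBS-1 and PBS-2 (744 ± 189). Col1a1 and Col1a2, the chains of collagen I, were at 755, 796, 820 and 429 CPM (700 ± 183) and at 679, 593, 718 and 446 CPM (609 ± 121). Every litter was far above its level in other classes, since Col1a1 averaged 20.1 CPM in endothelial-like, 2.99 CPM in epithelial-like and 1.06 CPM in ILC2-like cells. In edgeR's quasi-likelihood test with the litter as a term, Col1a1 was 5.19 (SE 0.18) log2 units higher in mesenchymal-like than in endothelial-like cells (adjusted p = 4.8e-16) and 7.42 (0.21) higher than in epithelial-like cells (adjusted p = 4.72e-18). After each cell was thinned to 2000 UMIs, Col1a1 had a UMI in 65.5% of mesenchymal-like cells and 0.293% of ILC2-like cells, with 92.4% and 0.916% before thinning and median depths of 9722 and 7180 UMIs. Col5a1 and Col5a2, chains of the collagen V that starts fibrils, were lower, at means of 90.4 and 106 CPM.

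Collagen VI, a microfibril of the pericellular matrix, was the next group in these cells. Col6a2 was at 458, 479, 561 and 360 CPM (465 ± 82.5), Col6a1 at a mean of 344 CPM and Col6a3 at 221 CPM. All 3 were higher than in endothelial-like cells (log2 differences of 4.06 (SE 0.16), 4.28 (0.20) and 3.86 (0.24), edgeR adjusted p at most 3.2e-12). The mesenchymal-like cells were also the highest of these classes for the transmembrane collagens Col13a1 (160 CPM) and Col25a1 (91.2 CPM) and for the fibril-associated Col14a1 (119 CPM). Col23a1, another transmembrane collagen, was at 39.6 ± 8.94 CPM, beside 34.7 ± 20.4 CPM in epithelial-like cells. Of the 44 genes 23 passed the filter on low counts in the fit of all classes, and 17 of these were called higher in mesenchymal-like than in endothelial-like cells and 3 lower, where 19.5% of the 12319 genes tested were higher and 16.5% lower. Against epithelial-like cells 14 were higher and 4 lower, where 23.8% and 24.7% of genes were. A gene can pass the filter through the class where it is high, so these counts describe the 23 genes and not the family.

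At a finer clustering the mesenchymal-like class divided into 157 cells led by Mfap4 and Tcf21 and 41 cells led by Agt and Hhip, which carried smooth muscle markers. Col13a1 was at 190 CPM (95% counting interval 171 to 211) in the Mfap4 and Tcf21-led cluster and at 23.2 CPM (11.1 to 42.7) in the Agt and Hhip-led cells. Col25a1 was at 108 CPM (93.6 to 124) and 4.64 CPM (0.562 to 16.8), and Col14a1 at 145 CPM (128 to 163) and 23.2 CPM (11.1 to 42.7). In every litter the level of each of the 3 was lower in the Agt and Hhip-led cells. Col3a1 was close in both, at 767 and 778 CPM, while Col1a1 was at 794 CPM (755 to 835) and 397 CPM (340 to 461). The clusters were chosen after the data were seen, the Mfap4 and Tcf21-led one holds 1 cell of another class, and these intervals cover counting error only. That cluster was left unnamed, since its mean share of basophil or mast markers (30.8%) was too near that of mesenchymal markers (49.7%).

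**Figure D2:**
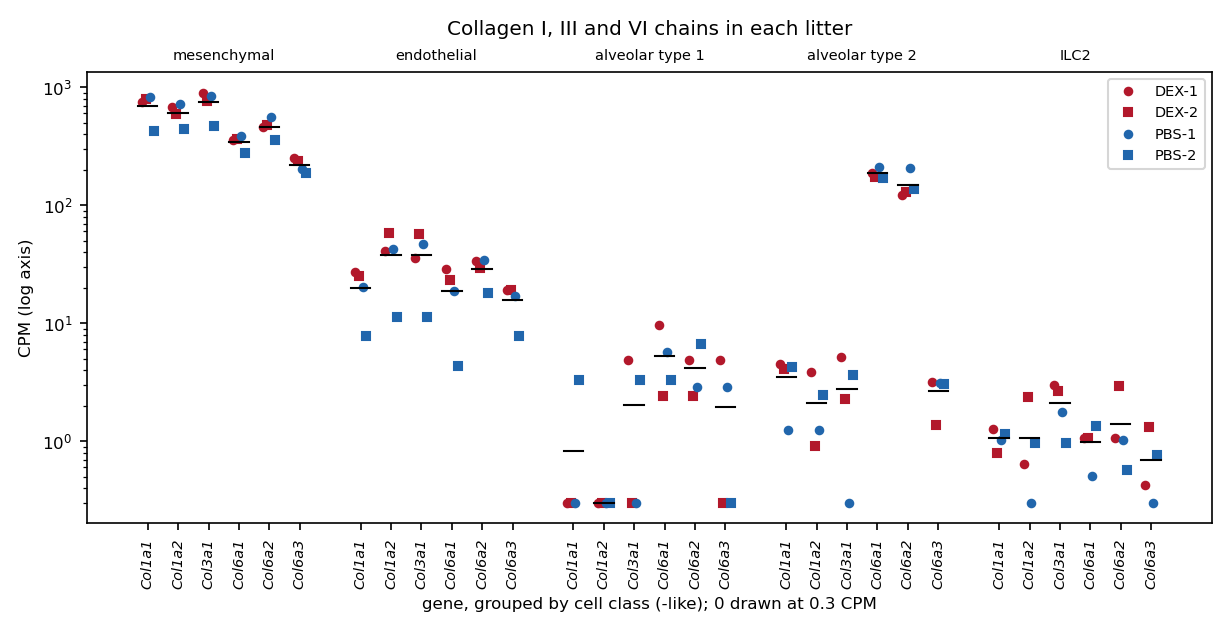
Levels of Col1a1, Col1a2, Col3a1, Col6a1, Col6a2 and Col6a3 in each litter (points, CPM on a log axis, levels of 0 drawn at the foot of the axis) and their means (horizontal lines) in 5 cell classes or subclasses. Col1a1 and Col3a1 in mesenchymal-like cells lie between 429 and 904 CPM in all 4 litters, above every other class drawn, and Col6a1 and Col6a2 are high in alveolar type 2-like cells as well, while Col6a3 is low there.

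Endothelial-like cells were led by the collagen IV pair of the vascular basement membrane. Col4a1 was at 1348, 1359, 1407 and 709 CPM in DEX-1, DEX-2, PBS-1 and PBS-2 (1206 ± 332) and Col4a2 at 577, 660, 627 and 362 CPM (556 ± 134). The PBS-2 litter was the lowest for both genes, but in each litter both genes were above their mesenchymal-like and epithelial-like levels. Col4a1 was 1.78 (SE 0.16) log2 units higher than in epithelial-like cells (edgeR adjusted p = 7.39e-10) and 1.58 lower in mesenchymal-like than in endothelial-like cells, a difference written as -1.58 (0.16, adjusted p = 2.91e-08). Thinned to 2000 UMIs, 79.3% of endothelial-like cells had a Col4a1 UMI against 1.12% of ILC2-like cells (96.0% and 3.57% unthinned, at median depths of 10800 and 7180 UMIs). Col15a1, a proteoglycan of the basement membrane zone, was at 62.9, 38.6, 42.7 and 31.0 CPM (43.8 ± 13.6), and was lower in mesenchymal-like cells by a log2 difference of -2.53 (0.33, adjusted p = 9.5e-07). Against epithelial-like cells 12 of the 23 genes were higher and 8 lower, where 26.2% and 28.6% of all genes tested were.

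Some fibrillar RNA was found in the endothelial-like class, but unevenly. Col1a2 was at 41.0, 57.8, 42.7 and 11.2 CPM (38.2 ± 19.5), with PBS-2 below the others. Col5a2, a collagen V chain, ran the other way, at 69.9, 94.4, 90.1 and 267 CPM (130 ± 91.8), so PBS-2 alone was above 100. The finer clustering placed these values in different cells. A cluster of 268 cells led by Plvap, a protein of fenestrated and capillary endothelium, held 88.4% of the class, with Col4a1 at 1296 CPM and Col5a2 at 38.4, 33.4, 49.8 and 54.9 CPM in the 4 litters. A second cluster of 16 cells led by Cxcl12, Gja4 and Gja5, the last 2 of them connexin genes of arterial endothelium, held Col5a2 at 894, 923, 511 and 1124 CPM, or 927 CPM pooled (838 to 1022). Their Col4a1 level was 164 CPM pooled. The Gja5-led cells were 1, 2, 4 and 9 in DEX-1, DEX-2, PBS-1 and PBS-2, or 1.39%, 2.74%, 3.88% and 16.4% of the endothelial-like cells of each litter, and had a median depth of 29790 UMIs. Over the whole class Col5a2 did not pass the test between mesenchymal-like and endothelial-like cells (log2 difference -0.05, SE 0.27, adjusted p = 0.92), while against the Plvap-led cells alone it was 1.33 log2 units higher in mesenchymal-like cells (adjusted p = 0.000262), a comparison added after the data were seen.

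The remaining 19 cells of the class carried pericyte markers, with Postn and Higd1b leading and 3, 9, 7 and 0 cells in the litters, so PBS-2 had none. Their pooled Col4a1 level was 1682 CPM (1493 to 1888), with 1384, 1750 and 1717 CPM in the litters that had such cells. Fibrillar genes were at higher pooled levels than in the Plvap-led cells, with Col3a1 at 304 CPM (227 to 398) against 27.7, Col1a2 at 292 CPM (217 to 385) against 28.5 and Col1a1 at 128 CPM (80.5 to 195) against 15.9. Col5a2 was at 99.3 CPM (57.8 to 159) against 44.6, and Col6a2 at 187 CPM (128 to 264). Col15a1 and Col18a1 had no UMI in them. With 19 cells in 3 litters no test was made. The count holds for this hashtag call and clustering only. With MULTIseqDemux as the hashtag caller a cluster of 430 deep cells was led by Higd1b and Postn. It was left unnamed, as epithelial and endothelial markers had mean shares of 77.6% and 70.6% of its cells.

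**Figure D3:**
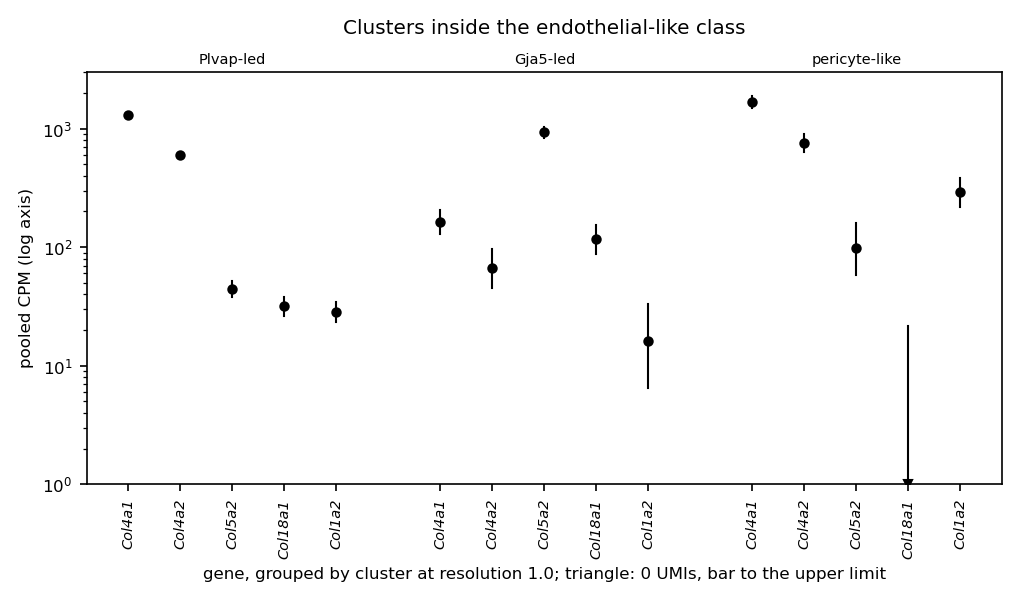
Pooled levels of Col4a1, Col4a2, Col5a2, Col18a1 and Col1a2 in the Plvap-led, Gja5-led and pericyte-like clusters of the endothelial-like class (points, CPM on a log axis) with 95% counting intervals (vertical lines), where a triangle marks a gene with 0 UMIs. Col5a2 is at 927 CPM in the Gja5-led and 44.6 CPM in the Plvap-led cells, and Col1a2 is highest in the pericyte-like cells, at 292 CPM.

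In epithelial-like cells the whole collagen IV family was found, with the chains Col4a3, Col4a4 and Col4a5 above their level in the other structural classes. Col4a1 was at 236, 248, 259 and 253 CPM (249 ± 9.62) and Col4a2 at 159, 170, 170 and 143 CPM (160 ± 12.8). Col4a4 was at 61.8, 87.7, 100 and 89.9 CPM (85.0 ± 16.4), Col4a3 at 37.7, 57.0, 48.4 and 56.6 CPM (49.9) and Col4a5 at 50.2, 55.3, 51.9 and 50.8 CPM (52.1). In the other structural classes the mean levels of these 3 genes were 3.86 to 16.6 CPM. The log2 differences of endothelial-like from epithelial-like cells were -4.94 (SE 0.38) for Col4a4, -4.12 (0.27) for Col4a3 and -3.89 (0.31) for Col4a5 (edgeR adjusted p at most 2.74e-10), and those of mesenchymal-like from epithelial-like cells were -2.74 (0.33), -3.90 (0.32) and -2.37 (0.30) (adjusted p at most 6.1e-07). Col4a6, which partners Col4a5 and lies head to head with it on the X chromosome, was at 4.52, 6.41, 5.67 and 13.3 CPM and did not pass the filter of that fit.

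Alveolar type 1 cells, the flat cells of gas exchange, and alveolar type 2 cells, the makers of surfactant, held different collagens. In the 104 alveolar type 1-like cells collagen IV made up 94.9 ± 2.34% of collagen UMIs, with Col4a4 at 165, 229, 323 and 261 CPM (244 ± 65.7) and Col4a3 at 131, 154, 115 and 136 CPM (134 ± 16.04). In the 298 alveolar type 2-like cells the same genes were at 52.6, 73.1, 72.5 and 81.9 CPM and at 29.5, 46.1, 42.8 and 58.1 CPM, below the type 1-like level in every litter. Col6a1 and Col6a2 ran the other way, at 189, 174, 210 and 171 CPM (186 ± 17.9) and 121, 130, 205 and 136 CPM (148 ± 38.5) in type 2-like cells and at 5.30 and 4.19 CPM on average in type 1-like cells. Of 10 collagen genes that passed the filter in this comparison, 3 were called higher in type 1-like cells (Col4a4 by 1.56, SE 0.14, Col4a3 by 1.38, SE 0.18, and Col4a5 by 0.91, SE 0.20, log2 units) where 10.4% of 7834 genes were, and 4 were lower, where 9.8% were. These 4 were Col6a1 (log2 difference -5.48, SE 0.27, edgeR adjusted p = 1.04e-07), Col6a2 (-5.43, SE 0.29), Col18a1 (-3.50, SE 0.54) and Col23a1 (-2.11, SE 0.57, adjusted p = 0.0203). Col4a1 did not pass (0.43, SE 0.14, adjusted p = 0.0593), but it was called higher in type 1-like cells in 6 of the alternatives, from 0.49 without PBS-2 (adjusted p = 0.0230) to 1.27 with MULTIseqDemux as the hashtag caller (adjusted p = 1.22e-06). Col4a2 was called higher in 3 of them (0.48 to 1.34). The call of Col4a5 was lost without DEX-2 (adjusted p = 0.0689) or without PBS-1 (0.0624). The contrast was added after the data were seen.

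Collagen VI is known as an assembly that joins Col6a1 and Col6a2 with another chain, mostly Col6a3. In alveolar type 2-like cells the ratio of Col6a3 to Col6a1 UMIs was 0.0139, with litters from 0.00787 to 0.0179, against 0.643 in mesenchymal-like cells, with litters from 0.532 to 0.712. It was lower in 4 of 4 litters (exact within-litter permutation test, two-sided, p = 0.125, the smallest that 4 litters allow, adjusted p = 0.125 over 8 ratio comparisons). After thinning, 133 of 296 type 2-like cells (44.9%) had a Col6a1 or Col6a2 UMI and 3 (1.01%) a Col6a3 UMI, against 139 (71.6%) and 70 (36.1%) of 194 mesenchymal-like cells. Among ILC2-like cells 0.342% had a Col6a2 UMI and 0.146% a Col6a3 UMI, at a median depth of 7180 UMIs before thinning against 19187 in type 2-like cells. The other chains that can take its place, Col6a4, Col6a5 and Col6a6, had 18, 16 and 8 UMIs in all assigned cells.

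The other 42 epithelial-like cells were led by the airway genes Scgb3a2, Scgb1a1 and Foxj1. Their highest collagen was Col23a1, a transmembrane collagen, at 101.4, 86.3, 78.5 and 186 CPM (113 ± 49.3), ahead of Col4a1 at a mean of 77.3 CPM. Col4a6 was at 13.2, 19.5, 3.02 and 23.7 CPM (14.9). No fit was made for these cells alone.

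**Figure D4:**
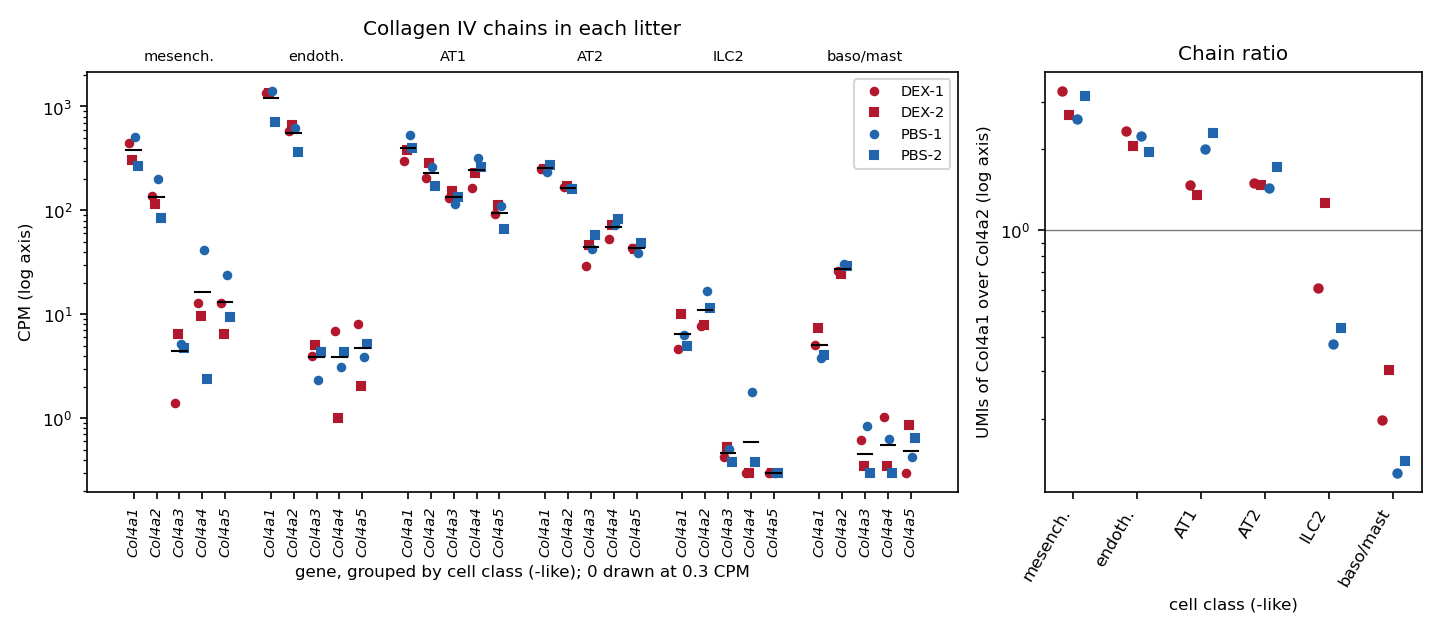
Left, levels of Col4a1 to Col4a5 in each litter (points, CPM on a log axis, levels of 0 drawn at the foot of the axis) with means (horizontal lines) in 6 cell classes or subclasses, where AT1 and AT2 are alveolar type 1-like and type 2-like cells. Right, the ratio of Col4a1 to Col4a2 UMIs in each litter on a log axis with a line at 1. Col4a1 and Col4a2 peak in endothelial-like and Col4a3, Col4a4 and Col4a5 in alveolar type 1-like cells, and all 4 litters lie below 1 in basophil or mast-like cells.

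ILC2-like cells, lymphocytes not known as makers of collagen, were taken as the reference for a background level, which can hold free RNA of the droplets. They held 30.4, 42.4, 38.3 and 33.0 CPM of collagen in all (36.0 ± 5.37, or 0.302 UMIs a cell), and 41.1 ± 3.83 CPM after thinning. B-like cells, at a median of 3528 UMIs, held 55.7, 73.6, 58.8 and 88.2 CPM. Above the ILC2-like level, edgeR called 23 of the 23 tested collagens higher in mesenchymal-like cells (30.5% of all genes tested were). It called 22 in endothelial-like cells (34.8%), all but Col7a1, and 16 in epithelial-like cells (40.9%). A gene low in ILC2-like cells can pass the filter only through another class where it is high, so these counts were partly set by the filter. They describe the 23 genes tested and not the family. Among the largest differences were Col1a1 in mesenchymal-like cells (9.18 log2 units, SE 0.22), Col5a2 in endothelial-like cells (8.22, SE 0.45) and Col4a5 in epithelial-like cells (9.16, SE 0.42). That of Col5a2 rests mostly on the 16 Gja5-led cells, which held 401 of its 589 UMIs in the endothelial-like class. The 7 genes not called in epithelial-like cells were Col3a1, Col5a1, Col5a2, Col7a1, Col13a1, Col14a1 and Col25a1, of which Col3a1 differed by 0.87 (SE 0.43, adjusted p = 0.0773). These 7 had class means of 0.459 to 3.08 CPM in epithelial-like cells, and were not called in the test. Col5a2 was near the threshold (2.24, adjusted p = 0.0530) and was called in 5 alternatives, among them DESeq2 (adjusted p = 0.00743) and no filter on low counts (0.00526). Col3a1 was called at a mitochondrial limit of 10% (adjusted p = 0.0276). Not all of the calls in mesenchymal-like cells held either. That of Col7a1 was lost with the highest doublet scores removed (edgeR adjusted p = 0.0872). With B-like cells as the reference Col7a1 (0.430), Col15a1 (0.0820) and Col4a5 (0.0926) were not called. With MULTIseqDemux Col4a3 (0.579) and Col4a4 (0.105) were not called.

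Basophil or mast-like cells held more collagen RNA than the ILC2-like cells, at 98.2, 95.1, 116 and 123 CPM (108 ± 13.4), and of other kinds. Col7a1, the anchoring fibril collagen known from skin, was at 27.4, 17.2, 33.2 and 33.8 CPM (27.9 ± 7.69, 549 UMIs), while the class means of mesenchymal-like, endothelial-like, epithelial-like and ILC2-like cells were 7.51, 2.38, 1.80 and 1.31 CPM. Col20a1, a fibril-associated collagen, was also highest here but rare, at 1.021, 1.55, 0.423 and 1.497 CPM (23 UMIs). Of the 23 collagens tested 5 were called higher than in ILC2-like cells, where 29.4% of genes were, and 1 lower. These counts too describe only the 23 genes that passed the filter. The 5 were Col15a1 (5.03 log2 units, SE 0.36), Col7a1 (4.54, SE 0.26, edgeR adjusted p = 2.44e-13), Col23a1 (4.52, SE 0.29), Col4a5 (2.40, SE 0.96, adjusted p = 0.0345) and Col4a2 (1.49, SE 0.21, adjusted p = 8.69e-07). Col16a1 was the one lower (-3.44, SE 0.93, adjusted p = 0.00383). Col4a5 rests on few UMIs, and its call was lost without DEX-2, PBS-1 or PBS-2 (adjusted p 0.165, 0.0846 and 0.0501). The contrast was added after the data were seen. Thinned, 5.38% of 2566 basophil or mast-like cells had a Col7a1 UMI (95% Wilson interval 4.57 to 6.32) against 0.195% of 2049 ILC2-like cells (0.0759 to 0.501), and unthinned 15.2% and 1.06%, at median depths of 6526 and 7180 UMIs.

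Within this class Col7a1 differed between the clusters. It was at 37.0, 26.5, 49.4 and 43.7 CPM in the 1279 cells led by Mcpt2, at 22.4, 18.4, 38.2 and 36.4 CPM in the 848 cells led by Cma1, both mast cell proteases, and at 24.4, 2.33, 33.0 and 19.8 CPM in the 199 cells led by Mrgprb1. In the 486 cells led by Ccl4 and Mcpt8, a basophil protease, 2 UMIs were found, or 0.485 CPM pooled (0.0587 to 1.75). Col15a1 and Col23a1 had the same order, at 14.97 and 29.8 CPM pooled in the Mcpt2-led cells and 1.21 and 2.91 CPM in the Ccl4 and Mcpt8-led cells. The mesenchymal markers were no higher in the basophil or mast-like class (29.5 to 43.6 CPM summed) than in ILC2-like cells (32.4 to 54.5 CPM). This covers mesenchymal markers only, and the source of the collagen RNA in these cells was not tested.

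The divergent pair Col4a1 and Col4a2 differed in its ratio between classes. Col4a1 exceeded Col4a2 by 3.29, 2.68, 2.58 and 3.17 to 1 in mesenchymal-like cells of DEX-1, DEX-2, PBS-1 and PBS-2. The ratio was 2.34, 2.06, 2.25 and 1.96 in endothelial-like and 1.49, 1.46, 1.52 and 1.77 in epithelial-like cells. In basophil or mast-like cells it was 0.197, 0.303, 0.126 and 0.139, so Col4a2 was the higher gene there in every litter, and 0.103 (0.0738 to 0.141) pooled in the Mcpt2-led cells. In ILC2-like cells it was 0.611, 1.27, 0.379 and 0.433. Both immune classes were below each of the 3 structural classes, and epithelial-like below mesenchymal-like cells, in 4 of 4 litters (exact within-litter permutation test, two-sided, p = 0.125 each, the smallest possible, adjusted p = 0.125 over 8 ratio comparisons). B-like cells, with 16 and 7 UMIs, gave 2.29 (0.89 to 6.57). The annotation places the antisense genes Gm15419 over Col4a2 and Gm15418 over Col4a1, and the strand setting of the counting is not given in the sources used here, so reads of these genes cannot be told apart from them. Likewise Gm12426 covers the start of Col15a1 and 2810430I11Rik that of Col5a1 on the opposite strand.

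The machinery that makes and anchors collagen was examined in a list of 64 genes of 7 roles. Of the tested genes, mesenchymal-like cells were above the ILC2-like level for 11 of 13 of prolyl and lysyl hydroxylation, 4 of 6 of folding and export (with Colgalt2 lower), 4 of 4 of propeptide processing, 5 of 5 of cross-linking, 5 of 6 receptors, 11 of 12 basement membrane partners and 5 of 5 of breakdown and its inhibitors, beside the 30.5% of all genes. Here too a gene can pass the filter through the class where it is high, so these counts describe the tested genes and not the roles. The highest of each role in mesenchymal-like cells, by litter, began with Sparc, a collagen-binding export partner, at 2076, 1412, 2265 and 1197 CPM. Ppib, a proline isomerase of the hydroxylation complex, was at 689, 522, 584 and 538 CPM, and Lox, which cross-links fibrils, at 404, 403, 345 and 239 CPM. Lox was at 13.6 CPM on average in endothelial-like and 6.05 CPM in epithelial-like cells. Itgb1, the beta subunit of the collagen-binding integrins, was at 535, 403, 603 and 356 CPM, and Pcolce, which speeds removal of the C-propeptide, at 179, 103, 200 and 102 CPM. Mmp2, a gelatinase, was at 213, 210, 157 and 135 CPM and Lamc1, a laminin chain, at 123, 126, 135 and 102 CPM. Against endothelial-like cells the genes of most roles were called in both directions, where 19.5% of all genes were higher in mesenchymal-like cells and 16.5% lower. Of 5 cross-linking genes 3 were higher (Lox, Loxl1 and Loxl2) and Pxdn, which cross-links collagen IV, was lower. Of 12 basement membrane partners Lama2 and Lama4 were higher and Hspg2, Nid1 and Nid2 lower. Of 6 receptors 3 were higher (Ddr1, Ddr2 and Mrc2) and 3 lower (Itga1, Itga2 and Itgb1). Of 13 hydroxylation genes 5 were higher and Plod1 and Plod3 lower, of 6 folding genes only the chaperone Serpinh1 was called, and it was lower. Propeptide processing had 3 of 4 higher, and breakdown and its inhibitors 2 of 5 higher and Timp3 lower.

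DEX and PBS litters were compared within each class, to ask whether the glucocorticoid given to the mothers went with a change of collagen RNA. With all 4 litters and the filter on low counts no collagen gene was called in any class. In mesenchymal-like cells 18 of the 44 genes could be tested and 0 were called, where 0% of 7578 genes were, in endothelial-like cells 0 of 14 (0% of 9227) and in epithelial-like cells 0 of 14 (0.0184% of 10858). In ILC2-like cells it was 0 of 3 (2.39% of 10641) and in basophil or mast-like cells 0 of 5 (0% of 10936). At an unadjusted p under 0.05 edgeR gave 1, 0, 0, 1 and 1 collagen genes in the same order, and DESeq2 called no collagen gene in any of the 5. Among all genes, edgeR gave 306, 292 and 436 at that unadjusted level in the mesenchymal-like, endothelial-like and basophil or mast-like classes, where it called none, and DESeq2 called 1, 0 and 7 there.

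The collagen total did not separate the groups in the structural classes with the most of it. In mesenchymal-like cells the DEX litters averaged 4657 CPM and the PBS litters 4110 (exact permutation test over litters, two-sided, p = 1), and in endothelial-like cells 2431 and 2051 (exact p = 1), with PBS-1 the highest and PBS-2 the lowest litter of both classes. In epithelial-like cells DEX litters averaged 939 CPM and PBS litters 1004, without overlap (exact p = 0.33, which is the smallest that 2 against 2 litters allow). The groups did not overlap either in basophil or mast-like cells, at 96.6 and 119 CPM (exact p = 0.33), and in ILC2-like cells they were at 36.4 and 35.7 CPM (exact p = 1). With 2 litters a group no total could pass, so these tests do not show that the groups are alike.

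No single gene passed the adjusted threshold with all 4 litters and the filter on low counts. In mesenchymal-like cells the log2 differences of DEX from PBS ran from -0.34 to 0.97 over the 18 genes (median 0.15, all genes -0.01), with Col1a1 at 0.31 (SE 0.27), Col3a1 at 0.33 (0.25) and Col6a2 at 0.02 (0.22). Col5a2 was the gene of the unadjusted count, at 0.74 (SE 0.28, edgeR adjusted p = 1.00), from 106, 160, 81.2 and 78.2 CPM, with both DEX litters above both PBS litters. In epithelial-like cells the range was -0.71 to 0.53 over 14 genes (median 0.03), with standard errors of 0.11 for Col4a1 (-0.03) and 0.13 for Col4a2 (0.12), the smallest intervals of any class. In endothelial-like cells it was -1.25 to 1.18 (median 0.43), and it depended on PBS-2. Col5a2 was at -1.10 (SE 0.49, adjusted p = 1.00) and Col4a1 at 0.38 (0.28), and without PBS-2 they were at -0.09 (0.24) and -0.02 (0.12). Without PBS-1, which leaves PBS-2 as the only control, they were at -1.70 (SE 0.20, adjusted p = 1.66e-14) and 0.93 (SE 0.14, adjusted p = 2.29e-09), and 8 of the collagens tested were called, a fit in which the lone control is assumed to vary like the DEX litters. Without the filter on low counts Col5a2 was called (-1.09, adjusted p = 0.00498). In the Plvap-led cells alone Col5a2 was at -0.52 (0.24, adjusted p = 1.00) and Col4a1 at 0.28 (0.23). PBS-2 was the lowest litter there too for summed collagen, at 1583 CPM against 2418, 2414 and 2559 CPM in DEX-1, DEX-2 and PBS-1. Beside PBS-2's low Col4a1 and high Col5a2 stood a share of 16.4% Gja5-led cells, no pericyte-like cell and the highest sum of alveolar type 2 markers in this class (4009 CPM, against 283 to 2579 in the other litters). The endothelial-like cells of PBS-2 were also deeper, at a mean of 21093 UMIs a cell against 12503 to 13906 in the other litters. The part of these features in the differences was not tested.

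In the immune classes the unadjusted genes were Col4a2 in ILC2-like cells and Col7a1 in basophil or mast-like cells. Col4a2 was at 7.65, 7.94, 16.8 and 11.5 CPM, lower in both DEX litters (log2 difference -0.83, SE 0.24, edgeR adjusted p = 0.107). It was called when PBS-2 was left out (-1.09, adjusted p = 0.00687) and when no filter on low counts was used (-0.83, adjusted p = 0.0167). Col7a1 differed by -0.59 (SE 0.22, adjusted p = 1.00), again with both DEX litters below both PBS litters. When the DEX difference was compared between mesenchymal-like, endothelial-like and epithelial-like cells in 1 model, 0 of 22 collagens were called (0.00967% of 10340 genes, which is 1 gene, were), with Col5a2 at an unadjusted p of 0.0128 and Col14a1 at 0.0477 (2 in all, and DESeq2 called none). Of the collagen pathway list, 3 of the 22 genes tested in ILC2-like cells were called, where 2.39% of all genes were, and none in the other 4 classes. Plod2, a lysyl hydroxylase, was lower with DEX at 48.4, 44.2, 70.6 and 68.1 CPM (-0.57, SE 0.10, adjusted p = 0.00823). Mmp2 was lower at 4.89, 4.77, 9.90 and 14.0 CPM (-1.32, SE 0.27, adjusted p = 0.0198). Lamb3, a laminin chain, was higher at 6.16, 8.47, 2.03 and 2.49 CPM (1.65, SE 0.36, adjusted p = 0.0283).

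**Figure D5:**
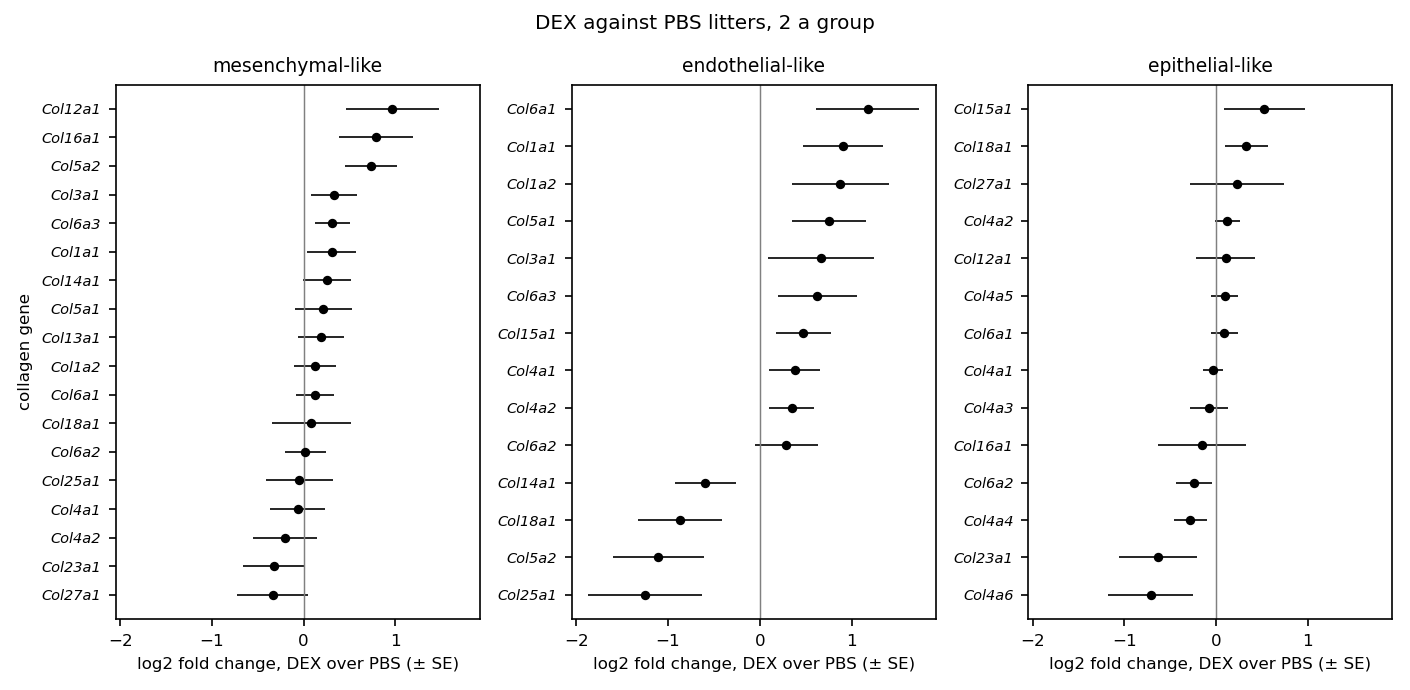
Log2 differences of DEX from PBS litters (points) with 1 standard error on each side (lines) for the collagen genes tested in mesenchymal-like, endothelial-like and epithelial-like cells (edgeR, 2 litters a group). None passed an adjusted p of 0.05, and the widest spread is in endothelial-like cells, from -1.25 to 1.18.

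The remaining members were rare. The 6 genes under 10 UMIs in all assigned cells were Col2a1 and Col9a1 (5 each), Col10a1 (6), Col6a6 (8), Col5a3 and Col19a1 (9 each), among them the cartilage collagens II, IX and X. Between 12 and 59 UMIs were counted for 14 more, Col6a4, Col6a5, Col8a1, Col8a2, Col9a2, Col9a3, Col11a1, Col11a2, Col17a1, Col20a1, Col22a1, Col24a1, Col26a1 and Col28a1, of which Col24a1, a fibrillar chain, reached 6.87 CPM in mesenchymal-like cells. None of these 20 passed the filter of the class fits. Of those with more, Col12a1 was at 20.0 CPM in mesenchymal-like and 21.7 CPM in epithelial-like cells, Col27a1 at 25.5 and 7.46 CPM and Col16a1 at 24.3 and 4.25 CPM. Col18a1, the source of endostatin, was found in all 3 structural classes, at 23.1, 38.1 and 19.0 CPM in mesenchymal-like, endothelial-like and epithelial-like cells, and passed the test between none of the 3 pairs (adjusted p 0.0911 to 0.778).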

How the data were processed

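Fetal mouse lung cells were measured with 5′ single-cell RNA sequencing and a hashtag library of the same cells. The authors deposited raw UMI counts per gene and barcode, made with Cell Ranger 7.0.0 multi per the file headers on mm10 per the submitters' processing notes. Strand and intron settings were not given in the sources used here. In all, 10648 barcodes and 32285 genes had 119146805 UMIs. Barcodes with at least 200 genes and at most 5% mitochondrial UMIs (10409) were assigned to litters with HTODemux (Seurat 5.3.0, quantile 0.99), which gave 7268 cells with 1 hashtag, 736 doublets and 2405 without a call. Only cells with 1 hashtag entered comparisons. Doublets of 1 litter cannot be seen by hashtag (3.38% expected). Scrublet's own threshold marked 1 cell, so the 226 highest scores were removed as an alternative. Of the doublets seen by hashtag 30.7% scored above that cut, so doublets can remain in this alternative. The litters held 18748208, 21265186, 18665955 and 23660294 UMIs (DEX-1, DEX-2, PBS-1, PBS-2). Intervals cover counting error only.

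Cells were clustered (scanpy 1.11.5, Leiden resolution 0.5, 2000 variable genes, 20 components, 15 neighbours, 10000 counts a cell) without collagen, collagen pathway or sex-linked genes. A cluster was named where 3 or more markers of a type were in 25% of its cells each, their mean share was at least 30% the next type's mean was at most 60% of it and no other type had more markers among the 10 genes of largest fold. Alveolar types were not set against epithelium, nor pericytes and smooth muscle against mesenchyme. These limits and the finer clusters (resolution 1.0) were set after seeing the data. UMIs were summed per litter and class and tested with edgeR 4.0.16 (TMM scaling, filterByExpr, quasi-likelihood, two-sided, adjusted by Benjamini-Hochberg over all genes tested, threshold 0.05), with DESeq2 1.42.0 as an alternative. Fits between classes had litter as a term. Class membership came from other genes of the same cells. The tests were tried on simulated counts with large known changes in well-counted genes. That trial does not cover changes as small as the DEX differences given here. For shares of cells, each cell was thinned to 2000 UMIs and shallower cells were left out. CPM is UMIs per 1000000 UMIs of the class and litter. Other tools were R 4.3.3, Matrix 1.6.5, Python 3.11.15, numpy 2.4.6, scipy 1.17.1, pandas 2.3.3 and matplotlib 3.10.9. Genes described by litter were the 5 highest collagens of each structural class, those called in any DEX comparison, those with at least 10 UMIs and their highest level in an immune class, and the paired collagen IV genes, and of the pathway list the highest gene of each role and those called with DEX. Others named were chosen after their values were seen. The genes and lists were chosen with earlier results of these data known. Cells from separate litters are separate animals, but with 2 litters a group p-values measure only the spread between these litters. Positions came from GENCODE M21 on GRCm38 and promoters from RefSeq.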

Additional observations from a re-analysis of the deposited data

Results flagged for a closer look

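Collagen signals above the level in ILC2-like cells were found in 4 sets of barcodes that entered none of the comparisons at the main setting. Some entered alternatives. Gzmb-led cells were named basophil or mast-like at resolution 1.0 (clusters of 329 and 121 cells). So was a cluster of 626 cells led by Car1, Gzmb and Prtn3 with MULTIseqDemux. Col5a1 was at 23.6 CPM in the unnamed cluster led by Prtn3, a protease of myeloid precursors (13.3, 23.6, 35.6 and 27.5 CPM in DEX-1, DEX-2, PBS-1 and PBS-2), against 0.93 CPM in ILC2-like cells, while its partner Col5a2 gave a ratio to Col5a1 of 0.0286. Col23a1 was at 23.5 CPM in the unnamed cluster led by Gzmb (25.2, 20.5, 20.7 and 29.4 CPM), against 0.98 CPM in ILC2-like cells. Col4a1 was at 963 CPM in 333 deep cells (median 34281 UMIs) that carried both epithelial and endothelial markers and were left unnamed, 143 of them from PBS-2. Barcodes without a hashtag call held 2869 CPM of collagen in all (2846 to 2893), against 750 CPM in the assigned cells. Much of the collagen RNA of the library thus lay in 2405 barcodes that HTODemux gave no litter. Their Col1a1 level was 254 CPM against 30.8 CPM, and their Col7a1 level 1.37 CPM against 8.68 CPM. The size of the structural classes depends on the hashtag caller. With MULTIseqDemux PBS-2 had 443 epithelial-like and 245 endothelial-like cells, against 91 and 55 with HTODemux. The other litters differed less.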

How the results depend on the processing

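The numbers of collagen genes called between classes stayed within 1.5 times under all alternatives run. Between structural classes and between the alveolar types these are higher and lower calls together. Against ILC2-like cells they are the higher calls alone. These were 20 to 31 genes in mesenchymal-like, 15 to 23 in endothelial-like, 12 to 20 in epithelial-like and 4 to 6 in basophil or mast-like cells. The basophil or mast-like class also took in Gzmb-led clusters in some alternatives. By direction, the 3 collagens higher in alveolar type 1-like than type 2-like cells became 5 with MULTIseqDemux, with the highest doublet scores removed and without TMM. Removing those scores left 6 alveolar type 1-like cells in PBS-2, against 19 before. The 1 collagen lower in basophil or mast-like than ILC2-like cells became 2 without a filter on low counts, without PBS-1, at a mitochondrial limit of 10% and without TMM. The collagen share of ILC2-like cells ran from 33.1 to 41.1 CPM. For DEX against PBS, leaving out 1 litter gave 0 to 8 collagens in endothelial-like cells, where the 8 came without PBS-1 (6 higher, 2 lower, with PBS-2 the only control), 0 to 1 in ILC2-like cells, where 1 came without PBS-2, and 0 in the other 3 classes. Without a filter on low counts 1 collagen was called in endothelial-like cells (Col5a2, -1.09, adjusted p = 0.00498), 1 in ILC2-like cells (Col4a2, adjusted p = 0.0167) and 1 for the difference between classes (Col5a2, adjusted p = 0.000466). The litter numbers pair nothing in the labels, and same-numbered litters deviated together by -0.17 to 0.08. With the replicate block 0 collagens were called in all 5 classes.

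Single genes with a call in either fit changed direction in 6 cases: with B-like cells as reference (chosen after seeing the data) Col1a2 in epithelial-like (-0.91) and Col4a5 in basophil or mast-like cells (-2.56); with MULTIseqDemux Col5a2 (0.94) and Col4a4 (-0.70) between mesenchymal-like and endothelial-like cells and Col15a1 between mesenchymal-like and epithelial-like cells (-1.57); and with Plvap-led cells alone Col5a2 (1.33). The causes were not tested. Of the other values of single genes 1589 kept direction and side of the threshold, 37 lost and 29 gained a call, and 94 without a call in either fit changed sign. Library totals without TMM moved the median of all genes by 0.43 between mesenchymal-like and epithelial-like cells, and the call of Col4a2 there was lost (-0.28, adjusted p = 0.203) and that of Col4a1 gained (0.60). Calls lost without 1 litter included Col7a1 between mesenchymal-like and endothelial-like cells (any litter, adjusted p 0.0738 to 0.0965), Col4a4 there without PBS-1 (0.225) and in endothelial-like cells above ILC2-like without DEX-1 (0.121), and Col1a2 in epithelial-like cells without DEX-1 or PBS-1. At resolution 1.0 no cluster was named mesenchymal-like, so those results have no such value. Depth limits the rare chains: 21 of 44 genes were not testable between classes.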
